A study of Mus musculus with 8 samples.

Results

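The alpha-2-macroglobulin family of mouse chromosome 6 was examined in liver RNA-seq. Its 5 members in the count table were A2m, A2ml1, Mug1, Mug2 and Pzp, of 49671 gene IDs in all. The genes were taken by name, but the family itself was chosen on measured values of the same libraries, namely the levels of its members in NT-KO and WT livers of each sex. NT-KO vs WT and female vs male values of the members are therefore given as a description and without a test.

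The libraries came from livers of post-weaning C57BL/6 mice, with 2 libraries in each of 4 groups (WT and NT-KO males, WT and NT-KO females). NT-KO mice are homozygous for a CRISPR/Cas9 deletion in Lbr that takes out the first part of its coding sequence and with it the usual start of translation of the lamin B receptor, an inner nuclear membrane protein that also has sterol reductase activity. WT mice carry the intact gene. The mutation goes back to 1 male founder that was bred to C57BL/6N mice, and nothing in the labels says whether each library is 1 animal, so the p-values here measure only the spread between these libraries.

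Proteins of this family inhibit proteases by trapping them. The protease cuts an exposed bait region, the inhibitor closes around it, and a reactive internal thioester bond can then link to the enzyme, after which the complex is cleared from plasma through the receptor LRP1. Hepatocytes make most of the family's plasma protein. In mice, Pzp encodes the tetrameric inhibitor of plasma, Mug1 and Mug2 encode murinoglobulins, which act as monomers, and A2ml1 is best known from stratified epithelium such as skin. A2m was the least abundant member in these livers.

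All 5 genes lay on chromosome 6 of GRCm38 in 2 clusters. A2m (ENSMUSG00000030111, chr6:121635376-121679227), Mug1 (ENSMUSG00000059908, chr6:121838541-121889057) and Mug2 (ENSMUSG00000030131, chr6:122006761-122085965) were on the plus strand. Pzp (ENSMUSG00000030359, chr6:128483567-128526720) and A2ml1 (ENSMUSG00000047228, chr6:128539821-128581608) lay near each other on the minus strand. The codons for the thioester site, in capitals, lay in exon 24 of each gene, and the 60-base coding window around them shows how close the members are to each other. The windows, in the order of the lines, were chr6:121668081-121668140, chr6:128552235-128552294, chr6:121878946-121879005, chr6:122075180-122075239 and chr6:128491578-128491637, each read on its gene's own strand.
A2m: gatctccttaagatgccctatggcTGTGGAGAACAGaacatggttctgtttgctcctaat
A2ml1: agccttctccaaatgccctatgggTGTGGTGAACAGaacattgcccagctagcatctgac
Mug1: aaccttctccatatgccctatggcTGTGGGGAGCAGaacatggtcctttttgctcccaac
Mug2: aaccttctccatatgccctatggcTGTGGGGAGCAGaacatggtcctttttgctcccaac
Pzp: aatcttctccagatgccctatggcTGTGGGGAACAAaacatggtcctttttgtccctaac
The Mug1 and Mug2 windows had 0 differences. Pzp differed from both at 7 of the 60 bases, and A2ml1 was the most distant, with 19 differences from A2m, 15 from the murinoglobulins and 16 from Pzp. Over the longest protein-coding transcript of each gene, Mug1 and Mug2 were identical at 95.1% of 4573 aligned bases. A2ml1 matched the other members at 59.5% to 61.8%.

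The likeness bears on counting. Of all 50-base stretches in the Mug2 transcripts, 50.5% occurred in another gene as well, most often in the murinoglobulin pseudogene Mug-ps1 (37.1%), and for Mug1 the share was 26.5%, most often with Mug2 (16.7%). How reads that map to several genes were treated is not given in the sources used here, so counts of Mug1, Mug2 and Mug-ps1 are uncertain where their sequence is shared. Such stretches made up 0.103% of A2ml1 and 0% of A2m. For Pzp the share was 3.19%, all of it with Gm10069, an antisense gene that overlaps it. The library kit is not stated to mark strand, so reads from that overlap cannot be assigned.

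Mug1 and Mug2 are shown again by their promoters, because these near-copies differed in level and in pattern. The stretches upstream of their annotated starts were chr6:121838291-121838540 for Mug1 and chr6:122006548-122006760 for Mug2 (RefSeq, GRCm38.p6, plus strand), with capitals marking each base that differs or has no partner in the other within the aligned part.
Mug1: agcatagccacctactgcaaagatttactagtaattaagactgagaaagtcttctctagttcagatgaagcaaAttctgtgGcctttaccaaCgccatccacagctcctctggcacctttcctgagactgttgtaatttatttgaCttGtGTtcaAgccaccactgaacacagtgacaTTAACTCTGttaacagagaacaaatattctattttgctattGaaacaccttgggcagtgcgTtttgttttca
Mug2: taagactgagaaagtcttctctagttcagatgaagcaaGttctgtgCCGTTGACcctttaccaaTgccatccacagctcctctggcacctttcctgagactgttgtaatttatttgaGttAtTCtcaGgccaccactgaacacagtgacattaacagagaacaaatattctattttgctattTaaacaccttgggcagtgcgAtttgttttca
Of 206 aligned positions, 196 were identical (95.1%) and 10 were mismatches, and 16 further bases lay in gaps. The first 35 bases of the Mug1 stretch lay beyond the start of the shorter Mug2 stretch and were not compared. The STAT motif TTCNNNGAA, searched on both strands, was found 0 times in these windows and in those of Pzp and A2ml1, and 7.02% of 32851 promoters held it. TATAAA was found 1 time in these 4 windows, in that of A2ml1, and 12.4% of promoters held it. The A2ml1 window, chr6:128581609-128581856 on the minus strand, is printed with that motif in capitals.
A2ml1: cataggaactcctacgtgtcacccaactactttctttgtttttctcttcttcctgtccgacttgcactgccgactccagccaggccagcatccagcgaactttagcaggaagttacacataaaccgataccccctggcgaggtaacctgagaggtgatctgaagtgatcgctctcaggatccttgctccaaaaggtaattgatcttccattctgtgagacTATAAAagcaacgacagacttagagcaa

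The count columns summed to between 45020377 and 64396291 per library. Genes with at least 1 CPM (a gene's counts per 1000000 counts of its library) in at least 2 libraries were tested, which kept 13117 genes and 4 of the 5 members and left out A2m. Lbr was counted at 6.15 to 7.81 CPM in WT and at 12.4 to 14.4 CPM in NT-KO libraries. These counts cover the whole gene and not the deleted part alone, so they do not check the genotype. The summed level of 6 hepatocyte markers was 68624 to 102057 CPM in WT males, 79666 to 98278 CPM in NT-KO males, 88152 to 100882 CPM in WT females and 92190 to 99018 CPM in NT-KO females, and all 6 were detected. In bulk liver, fewer cells of a type and less RNA per cell cannot be told apart.

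The family was an uneven part of the liver transcriptome. It took between 0.377% and 0.802% of all counts in a library, nearly all of them from Pzp and Mug1. By group mean, Pzp ranked 40 of all 49671 IDs in WT males, 36 in NT-KO males, 40 in WT females and 32 in NT-KO females. Mug1 ranked 46 and 47 in WT males and NT-KO males, and 104 and 137 in WT females and NT-KO females. Levels of different genes can be set side by side only per length. In WT males, CPM per kb of exon was 624 ± 115 for Pzp, 592 ± 167 for Mug1, 6.51 ± 0.311 for Mug2, 2.44 ± 1.20 for A2ml1 and 0.0340 for A2m (SD, n = 2). In WT females the order was the same and the spacing differed, with 403 ± 11.3 for Pzp, 195 ± 25.6 for Mug1, 54.5 ± 0.748 for Mug2, 0.877 ± 0.161 for A2ml1 and 0.00600 for A2m.

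**Figure D1:**
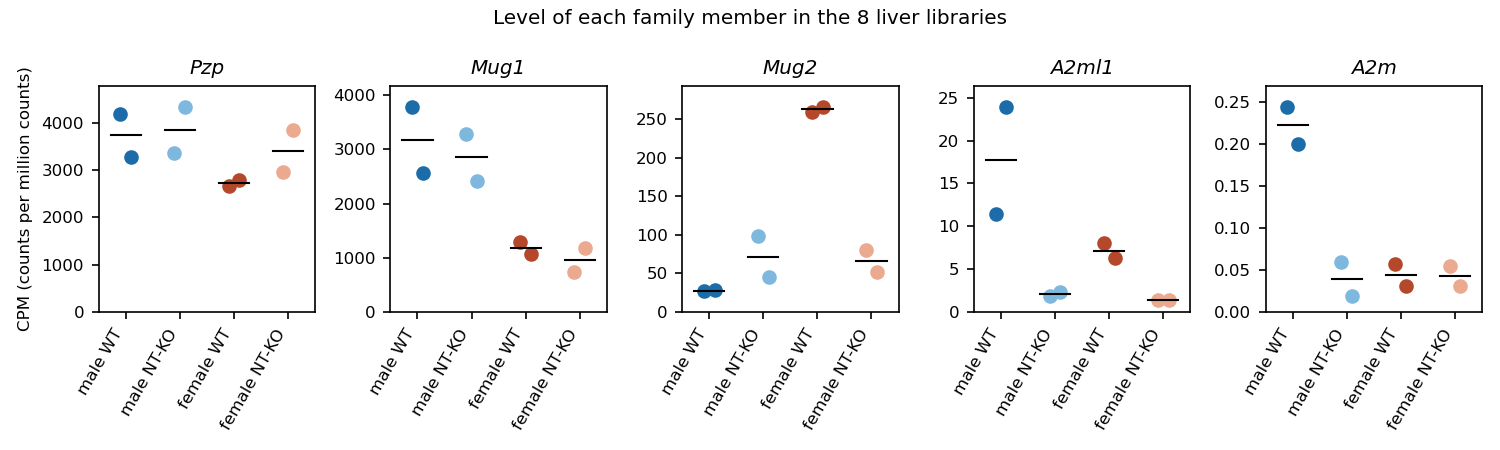
Level of each family member in CPM (linear axes from 0, 1 scale per gene) for 2 libraries in each of 4 groups; points are libraries and bars are group means. Mug2 was highest in the WT female libraries (260 and 267 CPM) and lowest in the WT male libraries (26.6 and 29.0 CPM), and A2ml1 was lower in both NT-KO groups than in the WT group of the same sex.

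Mug2 had NT-KO vs WT folds of opposite sign in the sexes. Its level was 26.6 and 29.0 CPM in the WT male libraries, 45.4 and 98.4 CPM in NT-KO males, 260 and 267 CPM in WT females and 51.9 and 81.1 CPM in NT-KO females. The WT female pair stood above every other library, the WT male pair stood below every other library, and the NT-KO libraries of both sexes overlapped between these. In males the log2 fold change (NT-KO vs WT, fitted with edgeR) was 1.31 (SE 0.354), a 2.47-fold higher level. In females it was -1.96 (SE 0.360), a 3.90-fold lower level. Summed B lymphocyte markers (4 genes) were also lowest in WT males and highest in WT females, but their NT-KO groups did not overlap. They lay at 1.11 to 1.503 CPM in WT males and 1.68 to 2.90 CPM in NT-KO males. In females they lay at 7.55 to 7.87 CPM in WT and 3.12 to 5.11 CPM in NT-KO. Their median log2 fold change was 0.615 in males, with 4 of 4 above 0, and -0.835 in females, with 4 of 4 below 0. Summed NK and T lymphocyte markers (4 genes, 0 past the filter) lay at 0.507 to 0.600, 0.771 to 0.809, 2.31 to 3.405 and 1.54 to 1.81 CPM in the same groups. The part of these cells in the Mug2 values was not tested. The male value of Mug2 rested in part on 1 library, since without male NT-KO replicate 1 it was 0.63. The background in this comparison was 0.0152% of 13117 genes called in males and 0.00762% in females, where a call needed a log2 fold change beyond 1 in either direction and a Benjamini-Hochberg false discovery rate (FDR) no higher than 0.05. The choice of the family used these contrasts, so nothing is read from which members had separate groups. The share of all genes with separate groups was not counted.

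A2ml1 was lower in NT-KO than in WT in both sexes. The WT male libraries held 699 and 1079 counts (11.4 and 23.97 CPM) and the NT-KO male libraries 94 and 127 counts (1.86 and 2.39 CPM). The WT female libraries held 420 and 403 counts (8.08 and 6.26 CPM) and the NT-KO female libraries 76 and 87 counts (1.40 and 1.37 CPM). Every NT-KO library was thus below every WT library of either sex, while the WT male pair was spread more widely than any other pair. In males this came to a log2 fold change of -3.12 (SE 0.357), an 8.70-fold lower level, and in females to -2.35 (SE 0.354), a 5.09-fold lower level. Without male WT replicate 2, the library with 1079 counts, the male value was -2.51. The summed level of 4 markers of squamous epithelium, a tissue where A2ml1 is known to be expressed, was 1.38 to 2.61 CPM over all libraries with 1 of the 4 at 0 throughout. Only 1 of the 4, Krt10, passed the filter, with a mean of 1.80 CPM, so the sum was mostly that gene. The summed level overlapped between NT-KO and WT in females. In males it was 1.51 to 1.55 CPM in WT and 1.77 to 2.61 CPM in NT-KO, and its part in the A2ml1 values was not tested.

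Mug1 differed little between the genotypes. It was measured at 3793 and 2574 CPM in WT males, 3281 and 2427 CPM in NT-KO males, 1294 and 1079 CPM in WT females, and 732 and 1174 CPM in NT-KO females. Within each sex the genotypes overlapped, and both male groups lay above both female groups. NT-KO vs WT log2 fold changes were -0.23 (SE 0.313) for males and -0.29 (SE 0.313) for females, each within 1 SE of 0.

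Pzp was the most even of the abundant members. Its level was 4190 and 3278 CPM in WT males, 3368 and 4344 CPM in NT-KO males, 2667 and 2790 CPM in WT females, and 2958 and 3841 CPM in NT-KO females. The male groups overlapped each other and the NT-KO female group, and the WT female pair was the lowest. For NT-KO vs WT, males had a log2 fold change of -0.03 (SE 0.238) and females one of 0.34 (SE 0.238).

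A2m was near the limit of counting in every library. It had 15 and 9 counts in the WT male libraries, 3 and 1 in NT-KO males, 3 and 2 in WT females and 3 and 2 in NT-KO females. Only the WT male libraries exceeded a floor of 3 counts, which corresponded to 0.0466 to 0.0666 CPM depending on the library. Summed over libraries, WT males held 24 counts and NT-KO males 4, which gave a ratio of 5.86 after scaling to the library totals. This ratio is a description that rests on few counts, and the NT-KO male libraries were themselves at or under the floor. No fold is given in females, where both groups were at or under the floor.

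The make-up of the family differed between the sexes. Pzp took 52.2% and 55.5% of the family's counts in WT males, 49.9% and 63.7% in NT-KO males, 63.1% and 67.4% in WT females, and 78.4% and 75.8% in NT-KO females. The male and female shares of Pzp overlapped by 1 library of each sex. Mug1 ran the other way and without overlap, with 35.6% to 48.6% among males and 19.4% to 30.6% among females. For each Mug2 count there were 142 and 88.8 Mug1 counts in WT males but 4.97 and 4.05 in WT females. In NT-KO these ratios were 33.4 and 53.5 in males and 9.02 and 22.6 in females, so that the NT-KO libraries of both sexes lay between the WT groups.

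**Figure D2:**
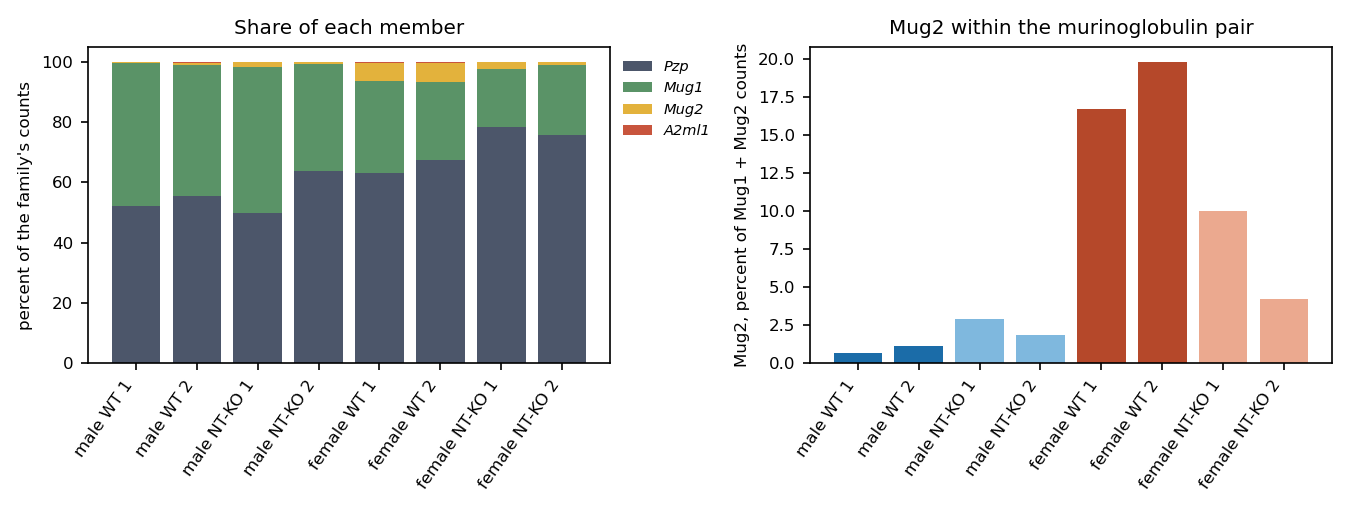
Left, percent of the family's counts taken by each member in each of the 8 libraries; right, Mug2 as a percent of Mug1 and Mug2 counts together, with bars coloured by group. The WT female libraries had the largest Mug2 share, with 4.97 and 4.05 Mug1 counts for each Mug2 count, and the WT male libraries had the smallest.

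Females were then compared with males over both genotypes. The levels of the members by sex and genotype chose the family, so their sex differences are described as well and not tested. Of 13117 tested genes, 550 (4.19%) were called with edgeR's quasi-likelihood test, 294 higher and 256 lower in females, and nothing about the members is read from this share. Of 18 known sex-biased liver genes, 16 were called, 9 higher and 7 lower in females. This list was drawn up with earlier results of these data known, so it is no independent check of the contrast.

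Mug1 was lower in females by a fitted log2 fold change of -1.63 (SE 0.227). All 4 female libraries lay below all 4 male libraries. The values within genotypes were close to each other, at -1.60 within WT and -1.66 within NT-KO.

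Mug2 averaged a log2 fold change of 1.43 (SE 0.251) in females over males. That average joined 2 unlike values, 3.07 within WT (8.38-fold) and -0.20 within NT-KO, and the female and male libraries overlapped.

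A2ml1 averaged -1.09 (SE 0.242), with -1.47 within WT and -0.70 within NT-KO, so the difference between the genotypes was larger than that between the sexes and the male and female libraries overlapped. For Pzp the average was -0.45 (SE 0.168), with -0.63 within WT and -0.26 within NT-KO.

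Markers of other cell types also had unlike levels in the sexes. The summed level of 5 Kupffer cell markers was 114 to 214 CPM in the male and 243 to 283 CPM in the female libraries, and that of 5 sinusoidal endothelium markers was 92.6 to 148 CPM in the male and 172 to 199 CPM in the female libraries. The summed level of 3 red blood cell markers was 354 to 738 CPM in WT males, 312 to 333 CPM in NT-KO males, 145 to 146 CPM in WT females and 145 to 272 CPM in NT-KO females. Called between the sexes were 0 of the 5 Kupffer cell markers (2 at an unadjusted edgeR p under 0.05, as were 26.9% of all tested genes), 0 of the 5 endothelium markers (4), 1 of the 3 red blood cell markers and 3 of the 4 B lymphocyte markers. The part of these cells in the values of the members was not tested.

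Sequences related to the murinoglobulins lay around Mug2. Mug-ps1, a murinoglobulin pseudogene downstream of Mug2, was counted at 55.1 and 112 CPM in WT males, 156 and 132 CPM in NT-KO males, 184 and 151 CPM in WT females and 125 and 103 CPM in NT-KO females. NT-KO libraries were above WT in males and below WT in females, as for Mug2, with log2 fold changes of 0.72 (SE 0.309, edgeR FDR 0.431) and -0.53 (SE 0.308, edgeR FDR 1), neither of which passed the test. Given the shared stretches, its counts and those of Mug2 cannot be fully told apart. The pseudogene Mug4-ps had log2 fold changes of 0.18 in males and -0.66 in females, and it too did not pass.

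**Figure D3:**
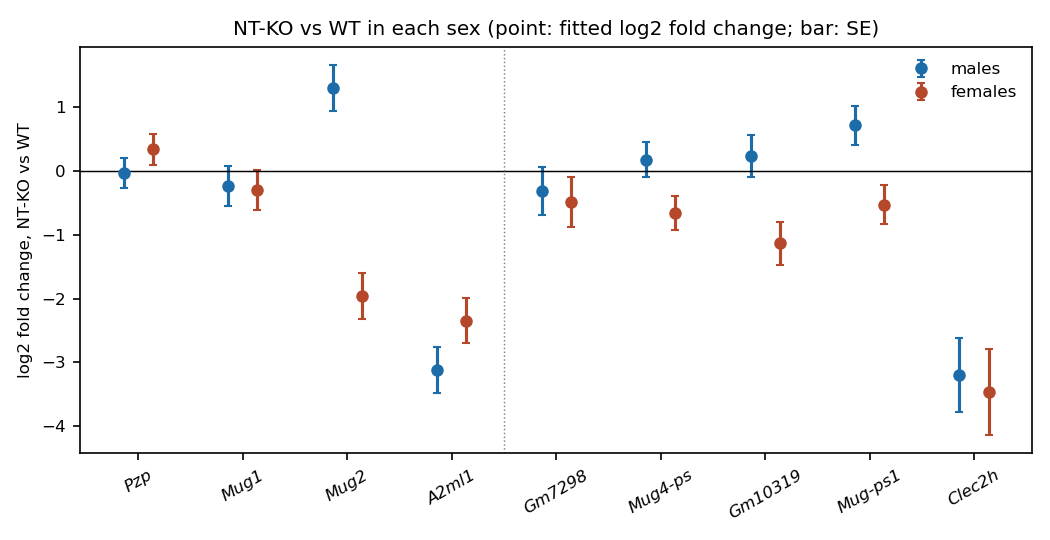
Fitted log2 fold change of NT-KO vs WT in males (blue) and females (red), with SE bars, for the 4 members past the filter (left of the dotted line) and for 5 genes near them. Mug2 lay at 1.31 in males and -1.96 in females, A2ml1 at -3.12 and -2.35, and Clec2h at -3.20 and -3.46.

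Genes around the members were followed to see how far the NT-KO vs WT values of the clusters extended. Of 44 tested genes within 1 Mb of a member, 0 were called in either sex by edgeR's quasi-likelihood test, and the likelihood ratio test called 1 in each sex, Clec2h. That test called 1.56% of all tested genes in males and 0.0839% in females. At an unadjusted quasi-likelihood p under 0.05 there were 8 of the 44 in males, beside 11.5% of all tested genes, and 4 in females, beside 1.55%. Among them were Mug-ps1 in males and Gm10319 and Mug4-ps in females, which share 50-base stretches with the murinoglobulins. Their counts and those of the members cannot be fully told apart, so nothing is read from these shares. The medians of the 44 were 0.0799 in males and -0.000582 in females, beside 0.0121 and 0.00117 over all tested genes. Clec2h, a C-type lectin gene of the natural killer gene region, lies upstream of A2ml1 (chr6:128662385-128677374). It held 297 and 136 counts in WT males, 34 and 12 in NT-KO males, 73 and 74 in WT females and 10 and 3 in NT-KO females, so that each NT-KO pair was below the WT pair of its sex. The lowest of these was at the floor of 3 counts given for A2m. Only the WT libraries reached 1 CPM (1.15 to 4.85, beside 0.0472 to 0.672 in NT-KO). Clec2h thus passed the filter through the WT groups alone, where it was high. Its log2 fold change was -3.20 (SE 0.584, edgeR FDR 0.160) in males and -3.46 (SE 0.676, edgeR FDR 1) in females. It was the only 1 of the 44 neighbours with a log2 fold change below -1 in both sexes, and 0 were above 1 in both. The share of all tested genes beyond these limits in both sexes was not counted, so nothing is read from this.

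Ranked by the mean of both sexes, the other neighbours at the extremes lay nearer to 0. Gm10319 and Gm7298 lay beside the murinoglobulins and shared 50-base stretches with them. They had log2 fold changes of 0.24 and -0.31 in males and -1.13 and -0.49 in females. At the other end were Gm18009 (0.87 in males and 0.55 in females), Gm10069 (0.38 and 0.89) and Gm44243 (1.08 and -0.04). Between the sexes, 3 of the 44 neighbours were called, beside 4.19% of all tested genes. Clec9a was higher in females (1.04, edgeR FDR 0.0220), and Clec2h (-1.93, edgeR FDR 0.0374) and Gm7298 (-1.17, edgeR FDR 0.0393) were lower. Of the 50-base stretches of Gm7298, 10% also occur in Mug1.

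**Figure D4:**
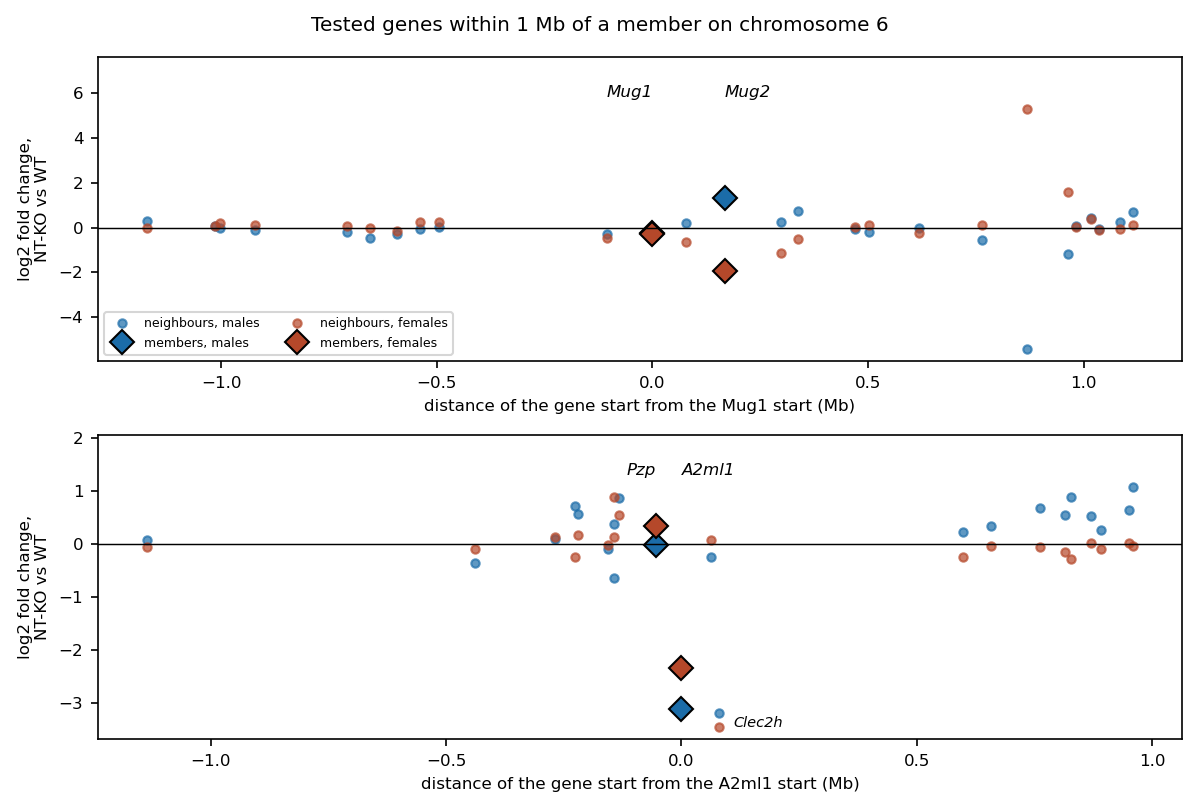
Log2 fold change of NT-KO vs WT in males (blue) and females (red) for tested genes within 1 Mb of a member, by distance of the gene start from that of Mug1 (top) or A2ml1 (bottom); diamonds are members and circles neighbours. Clec2h lay beside A2ml1 at -3.20 in males and -3.46 in females. The widest pair of circles, at -5.43 in males and 5.32 in females, is Nanog, with SE values of 3.10 and 2.45 and over 1 CPM in 2 libraries only.

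Proteins that share the thioester fold or handle the inhibitors were set beside the family. Of 8 thioester relatives, 4 were tested (C3, C4a, C4b and Hc), and 0 were called for NT-KO vs WT in either sex, by either edgeR test (0 also at an unadjusted p under 0.05), with medians of -0.168 in males and 0.232 in females. Between the sexes, C4a, a complement C4 copy, was lower in females (-3.47, SE 0.234, edgeR FDR 9.65e-05), as was Hc, complement C5 (-1.29, SE 0.160, edgeR FDR 0.00255). Counts of C4a and C4b can share reads, since these genes are near-copies. Of 7 receptor and chaperone genes, 6 were tested and 0 were called for NT-KO vs WT by either edgeR test, again with 0 at an unadjusted p under 0.05. These counts are beside the same shares, and nothing is read from them either. Between the sexes, Lrp2, an endocytic receptor, was lower in females (-4.24, edgeR FDR 0.000882) and Vldlr, a lipoprotein receptor, was higher (4.03, edgeR FDR 0.00294). Both levels were low, with means over the 8 libraries of 0.753 CPM for Lrp2, under the filter's 1 CPM, and 4.54 CPM for Vldlr. Lrp1, the clearance receptor itself, was named after its values were seen, with a mean of 435 CPM and log2 fold changes of -0.18 in males and 0.08 in females.

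Other plasma protease inhibitors served as a comparison of function. Of 25 such genes, 21 were tested, and 0 were called in either sex or between the sexes by edgeR's quasi-likelihood test. At an unadjusted p under 0.05 there were 2 of 21 in males, 0 in females and 4 between the sexes, beside 11.5%, 1.55% and 26.9% of all tested genes, and the likelihood ratio test called 1 in males, Serpina10. The medians for NT-KO vs WT were 0.0538 in males and 0.104 in females. The most abundant of them, Ahsg and Kng1, had log2 fold changes of -0.26 and 0.10 in males and -0.17 and 0.12 in females. Alpha-2-macroglobulins are acute phase proteins in some species, so 22 genes of IL-6 signalling and the acute phase were counted as well. Of these, 0 were called for NT-KO vs WT in either sex by edgeR's quasi-likelihood test, with 6 of 22 in males and 0 in females at an unadjusted p under 0.05, beside 11.5% and 1.55% of all tested genes. The likelihood ratio test called 2 in males, Socs3 and Saa4, beside 1.56% of all tested genes. In males 20 of the 22 had a value below 0, with a median of -0.736 beside 0.0121 for all tested genes, and in females 15 had a value above 0, with a median of 0.103. Between the sexes, Hp (-1.36, edgeR FDR 0.0305), which binds free haemoglobin, and Saa4 (-1.03, edgeR FDR 0.0387) were lower in females.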

How the data were processed

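RNA from mouse liver was sequenced by the authors as 8 libraries. They trimmed the reads with cutadapt, aligned them to GRCm38 with STAR 2.6.1a and counted reads per Ensembl gene with featureCounts. The deposited values are raw counts per gene with no normalization. Settings for strand and for reads that map to several genes are not given in the sources used here. Of 49671 gene IDs, 49412 matched the GENCODE annotation of GRCm38.

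Analysis used edgeR 4.0.16 with limma 3.58.1 under R 4.3.3, and DESeq2 1.42.0 as an alternative. A gene entered the fit if 2 or more libraries reached 1 CPM, and genes for rRNA, miRNA and mitochondrial RNA were dropped. Library sizes were scaled by TMM, but printed CPM are not TMM-scaled except per kb. The quasi-likelihood fit took all 8 libraries, with 4 group means and no replicate block. A call needed a log2 fold change beyond 1 in either direction and a Benjamini-Hochberg FDR no higher than 0.05, and SE is the size of the log2 fold change divided by the square root of F. A female vs male test of the members had been planned, and its p-values are left out because their levels by sex also chose the family. Log2 CPM used a prior count of 2. The test was also run on simulated counts.

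Named genes were the members, the Mug pseudogenes, Lbr, list genes called in a tested comparison (otherwise the 2 most abundant), the 3 highest and 3 lowest neighbours within 1 Mb by mean NT-KO vs WT value, and the 3 genes with the highest Pearson r to each member. The sex-biased genes were used only as a count. The members and lists were chosen with earlier results of these data known. Alternatives were other size factors, filters and tools, a replicate block and each library left out. Promoter sequences are from RefSeq and other sequences from GRCm38. The deviations of libraries with the same replicate number correlated between -0.181 and 0.209.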

Additional observations from a re-analysis of the deposited data

Results flagged for a closer look

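Mug2 had NT-KO vs WT log2 fold changes of opposite sign in the sexes, 1.31 in males and -1.96 in females, and the value in females minus that in males was -3.27. Both NT-KO libraries were above both WT libraries in males and below them in females. The choice of the family used these values, and the difference was not tested. Mug-ps1 showed the same arrangement of libraries, with a value in females minus that in males of -1.25, and this difference was not tested either. Of 50-base stretches in Mug2, 37.1% also occur in Mug-ps1.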

How the results depend on the processing

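Of 204 alternative log2 fold changes of the members, 5 had another sign than the reported value, all of Mug1 or Pzp in NT-KO vs WT. For Pzp in males the value with library size only was 0.046. Without a filter beyond 1 count, 1241 genes were called between the sexes. With a replicate block 537 were called and the members kept their direction in the sex comparison (A2ml1 -1.05, Mug1 -1.61, Mug2 1.45 and Pzp -0.45), and the numbers did not pair the libraries. With library size only, the A2ml1 sex difference was -0.96, and as a plain difference of mean log2 CPM it was -1.03 and that of Mug2 was 1.47. Leaving out 1 library at a time gave 364 (without female NT-KO replicate 1) to 561 genes called. The sex difference then ran from -1.30 to -0.78 for A2ml1, 1.20 to 1.77 for Mug2, -1.83 to -1.47 for Mug1 and -0.55 to -0.35 for Pzp. NT-KO vs WT in males ran from -3.56 to -2.51 for A2ml1, -0.49 to 0.09 for Mug1, 0.63 to 1.76 for Mug2 and -0.21 to 0.17 for Pzp, and in females from -2.53 to -2.15, -0.69 to 0.020, -2.31 to -1.69 and 0.13 to 0.53. The likelihood ratio test called 1 other plasma protease inhibitor (Serpina10) and 2 acute phase genes (Socs3 and Saa4) in males, and 1 neighbour in each sex. With 2 libraries a group and few A2m counts, small differences were not detectable, and the causes of these changes were not tested.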

Other observations

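The genes whose pattern over the 8 libraries was most like that of each member were found by Pearson's r of log2 CPM, given as a description, since the points share groups, sex and depth. For A2ml1 they were Gm45769 on chromosome 6 (r = 0.967), Zmym6 (0.961) and Cdkal1 (0.960). For Mug1 they were Rnf214 (0.991), Enpp2 (0.989) and Phf20l1 (0.988). For Mug2 they were Tsc22d4 (0.981), Zfp280c (0.974) and P2rx7 (0.973), and for Pzp they were Uba2 (0.986), Rfc1 (0.980) and Tut7 (0.979). Between members, r was 0.726 for Mug1 and Pzp, -0.846 for Mug2 and Pzp and -0.55 for Mug1 and Mug2.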
